A study of Homo sapiens with 4 samples.

Results

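The genes described here are the components of the Hippo pathway and the target genes of its effector YAP1 with the TEAD transcription factors. They were taken by symbol from a list of 37 genes, 18 components and 19 targets, and all 37 were found among the 25343 genes of each table. CTGF and CYR61, now named CCN2 and CCN1, stand in the tables under their older symbols. The data are RNA sequencing of 4 libraries, 1 per group, from a pair of cell lines derived from human prostate carcinoma. Cells of the enzalutamide-resistant line C4-2B ENZR were grown with the antiandrogen enzalutamide at 20 µM, control and knockdown alike. LNCaP is an androgen-responsive line for which no enzalutamide is listed. Serum is listed at 10% for all 4 groups. In each line, cells stably infected with lentivirus for an shRNA against the coding region of MAOA were compared with cells that carried a non-targeting shRNA, and both groups had been selected with an antibiotic. The product of MAOA, monoamine oxidase A, sits on mitochondria and breaks down serotonin and noradrenaline. The sources used here do not say whether a single hairpin sequence served both lines, or whether the cells were clones or pools.

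The Hippo pathway is a kinase cascade that restrains growth in dense epithelia. The kinases STK4 and STK3 (MST1 and MST2), with the scaffold SAV1, activate LATS1 and LATS2 together with the adaptors MOB1A and MOB1B, and NF2 (merlin) brings LATS kinases to the membrane. Active LATS phosphorylates the coactivators YAP1 and WWTR1 (TAZ), which then stay in the cytoplasm. Unphosphorylated, they enter the nucleus and bind TEAD proteins at DNA that holds the letters CATTCC. Control of the pathway is thus largely by phosphorylation and location of proteins, which RNA levels do not show. In normal prostate YAP1 is known mainly from basal epithelium and stroma, and in cancer it has been tied to androgen-independent growth.

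Values are CPM, reads relative to library size, after TMM scaling (trimmed mean of M-values) by the authors, and each ratio is log2 of (knockdown CPM + 1)/(control CPM + 1) within a table. The tables were normalized separately, so levels of the lines are set side by side and not compared. Levels are given as control against knockdown. Depth was 23479051 against 23679869 reads in C4-2B ENZR and 52550452 against 52012696 in LNCaP. The upper limit for a gene with 0 reads, 3 reads, was 0.121 against 0.122 CPM and 0.0529 against 0.0614 CPM respectively. MAOA was at 327 against 219 CPM in C4-2B ENZR and at 445 against 140 CPM in LNCaP, lower in the knockdown library of each. Its log2 ratios were -0.58 and -1.67, so MAOA was reduced less in C4-2B ENZR than in LNCaP. All 8 markers of luminal prostate cells had a mean of at least 1 CPM in both tables. Of 3 basal markers 0 did so in C4-2B ENZR and 1 in LNCaP, and the summed basal level was at most 0.122 CPM in C4-2B ENZR and 1.15 CPM in each LNCaP library. Of 6 stromal markers 3 and 2 did so, led by COL1A1 (44.4 to 60.9 CPM) with COL1A2 at 0 in all libraries, and of 3 leukocyte markers 1 (CD68). Genes with a mean of at least 1 CPM had a median ratio of 0.0020 in the C4-2B ENZR table and 0.11 in the LNCaP table, so an LNCaP ratio near 0.11 is that of a typical gene.

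Of the 18 components 17 reached a mean of 1 CPM in C4-2B ENZR and all 18 in LNCaP, whereas of the 19 targets only 11 and 10 did. Members that missed this minimum are given below by their reads. Single members close to it were MYOF in C4-2B ENZR (mean 0.993 CPM) and AXL in LNCaP (mean 0.966 CPM) just outside, and AXL in C4-2B ENZR (1.24 CPM), AMOTL1 in C4-2B ENZR (1.44 CPM) and WWTR1 in LNCaP (1.48 CPM) just inside.

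The coactivators differed widely in level. YAP1 was at 85.8 CPM in the C4-2B ENZR control and 90.4 in its knockdown, and at 106 against 137 CPM in LNCaP. WWTR1 had 10 reads in each C4-2B ENZR library (0.404 against 0.407 CPM) and 100 against 59 reads in LNCaP (1.76 against 1.21 CPM). Per kilobase of its longest coding transcript in GENCODE release 29, the level of YAP1 was 198 and 207 times that of WWTR1 in C4-2B ENZR and 56.2 and 106 times in LNCaP. With the median coding transcript as the length these factors were 73.2 and 76.7, and 20.8 and 39.2. YAP1 was the coactivator with the higher level in all 4 libraries under both lengths. Its log2 ratio was 0.07 in C4-2B ENZR (95% counting interval -0.01 to 0.16) and 0.36 in LNCaP (0.32 to 0.42). These exact conditional (Clopper-Pearson) intervals hold counting error only and leave out the added 1 CPM, so they say nothing of the spread between cultures. The LNCaP ratio of WWTR1 was -0.32, in the direction opposite to that of YAP1. Of the distinct 50-base stretches of WWTR1 11.4% occur in another gene, mostly its antisense neighbour WWTR1-AS1, which had 25 against 26 reads in C4-2B ENZR and 50 against 34 reads in LNCaP. For YAP1 the share was 9.75%.

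All 4 TEAD genes, which encode the DNA-binding partners of the coactivators, were present in every library. TEAD1 was at 62.6 against 53.7 CPM in C4-2B ENZR and 37.1 against 33.0 CPM in LNCaP. It was the TEAD gene lower in the knockdown of both lines, with log2 ratios of -0.22 and -0.17. TEAD4 was at 42.8 against 36.5 CPM and at 23.4 against 24.9 CPM, TEAD3 at 25.8 against 26.4 CPM and at 53.4 against 67.3 CPM, and TEAD2 at 9.83 against 8.58 CPM and at 14.6 against 17.3 CPM. In C4-2B ENZR the ratios of TEAD2, TEAD3 and TEAD4 were -0.18, 0.03 and -0.22, and in LNCaP they were 0.23, 0.33 and 0.09.

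The order of the TEAD genes depended on the length used. Per kilobase of the longest coding transcript TEAD4 led in C4-2B ENZR (25.3 against 21.6 CPM per kb) and TEAD3 in LNCaP (17.9 and 22.6), with TEAD4 second there (13.8 and 14.7). With the median length TEAD4 led in both lines, 4.82 and 4.02 times the level of TEAD3 in C4-2B ENZR but 1.27 and 1.08 times in LNCaP. TEAD1, the TEAD gene with the highest CPM in C4-2B ENZR, was below TEAD4 per kilobase in all 4 libraries (TEAD4 over TEAD1 was 3.16 to 3.78 by the longest and 2.20 to 2.64 by the median transcript). Reads were 50 nt long, and few 50-base stretches are common to the TEAD genes: 0.285% of the distinct stretches of TEAD4 and 0.23% of those of TEAD3 occur in another gene, and 0% of those of TEAD1. TEAD2 shared 7.95%, with CD37 on the other strand, a gene at 1.17 to 2.03 CPM in these libraries.

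**Figure D1:**
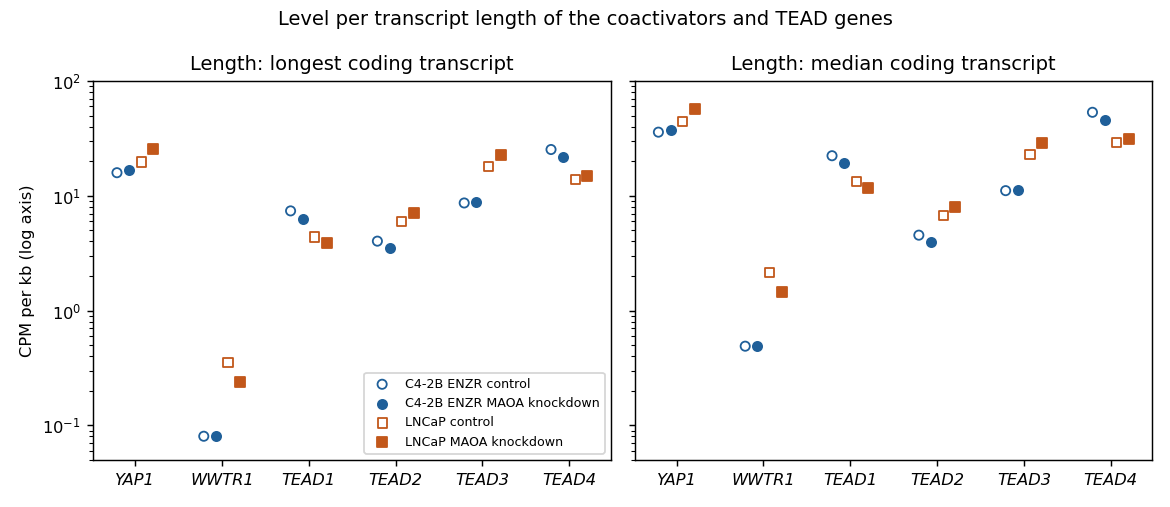
Level per kilobase of transcript (log axis) of YAP1, WWTR1 and TEAD1 to TEAD4 in each of the 4 libraries, by the longest (left) and the median (right) coding transcript of each gene; open symbols are controls and filled symbols MAOA knockdowns. WWTR1 lies below every other gene in both panels, and TEAD3 and TEAD4 change places in LNCaP between them.

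The core kinase genes were all expressed. STK4 was at 66.7 against 75.8 CPM in C4-2B ENZR and 43.9 against 50.5 CPM in LNCaP, with log2 ratios of 0.18 and 0.20. STK3 was at 31.9 against 31.7 CPM and at 23.7 against 31.5 CPM (log2 -0.0083 and 0.39). Per kilobase of the longest transcript STK4 over STK3 was 1.02 and 1.17 in the C4-2B ENZR libraries and 0.905 and 0.786 in those of LNCaP, and by the median transcript 1.27 and 1.45, and 1.12 and 0.972. LATS1 was at 56.5 against 51.9 CPM and at 38.3 against 42.4 CPM, and LATS2 at 11.1 against 11.3 CPM in C4-2B ENZR but 41.4 against 56.1 CPM in LNCaP. LATS1 over LATS2, per kilobase of the longest transcript, was 3.73 and 3.38 in the C4-2B ENZR libraries and 0.678 and 0.553 in those of LNCaP. By the median transcript it was 8.21 and 7.44 and 1.49 and 1.22, so the order of these kinases in LNCaP depends on the length. Under either length this ratio, taken within a library, was higher in both C4-2B ENZR libraries than in both LNCaP libraries.

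The ratios of the adaptors were within 0.17 of 0 in C4-2B ENZR and reached 0.44 in LNCaP. SAV1, the STK3 and STK4 scaffold, was at 34.4 against 38.3 CPM in C4-2B ENZR and 26.3 against 36.0 CPM in LNCaP (log2 0.15 and 0.44). MOB1A was at 32.8 against 37.0 CPM and at 30.9 against 42.2 CPM (0.17 and 0.44), and MOB1B at 66.4 against 60.3 CPM and at 33.8 against 36.8 CPM (-0.14 and 0.12). NF2 differed little within each line, 146 against 145 CPM in C4-2B ENZR and 135 against 138 CPM in LNCaP, with ratios of -0.01 and 0.03. Of the distinct 50-base stretches of SAV1 21.6% occur in another gene, mostly ATL1 on the opposite strand, which was at 1.01 CPM or less in all 4 libraries. MOB1A and MOB1B shared under 1% of theirs (0.993% and 0.0834%).

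The angiomotins, scaffolds that hold YAP1 at junctions and on actin, differed in level, with AMOTL1 scarce. AMOT was at 40.1 against 38.1 CPM in C4-2B ENZR and 21.8 against 27.0 CPM in LNCaP (log2 -0.07 and 0.30). AMOTL2, which published YAP1 target sets list as a target too, was at 13.5 against 11.1 CPM and at 40.2 against 45.0 CPM (-0.27 and 0.16). AMOTL1 had 22 against 49 reads in C4-2B ENZR (0.89 against 1.99 CPM), a log2 ratio of 0.66 that was the highest of any component in that line, and 230 against 237 reads in LNCaP (4.05 against 4.85 CPM, 0.21).

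VGLL4 encodes a TEAD cofactor that competes with YAP1 for TEAD and acts against it. It was at 107 CPM in the C4-2B ENZR control and 121 in its knockdown, and at 93.8 against 150 CPM in LNCaP. Its log2 ratios were 0.18 (counting interval 0.10 to 0.25) and 0.68 (0.63 to 0.73), the highest of the 18 components in LNCaP. Of its distinct 50-base stretches 24.9% occur in another gene, mostly ATG7, which lies on the opposite strand. ATG7 was at 25.2 to 27.9 CPM in the 4 libraries, with ratios below 0 in both lines (-0.13 and -0.05). Its part in the VGLL4 value was not tested, and the sources used here do not say whether counting used strand.

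**Figure D2:**
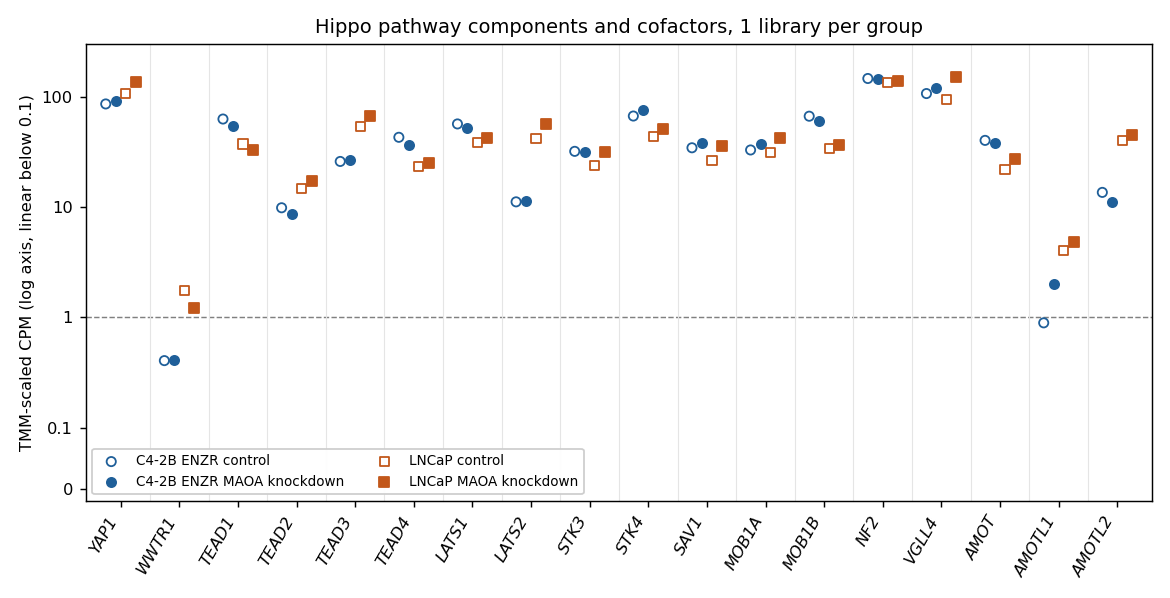
TMM-scaled CPM of the 18 components in each of the 4 libraries, on an axis that is logarithmic above 0.1 CPM and linear below it; open symbols are controls, filled symbols MAOA knockdowns, and the dashed line marks 1 CPM. WWTR1 and AMOTL1 are the scarce components, and the filled LNCaP squares of VGLL4 (150 CPM) and YAP1 (137 CPM) lie above their open ones (93.8 CPM for VGLL4 and 106 CPM for YAP1).

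A test over both lines was possible for 17 components and 9 targets, those with a mean of at least 1 CPM in both tables. It was limma on log2(CPM + 1) with a line term, with the lines as the only replicates and Benjamini-Hochberg adjustment over 13114 genes. Of all genes 4.22% rose and 1.49% fell at an adjusted p below 0.05 (554 and 195 genes). This split turned with scaling, since 351 rose and 653 fell once each library was rescaled to the same sum. Of the components 1 of 17 rose and 0 fell, a share of calls near that background. The 1 that rose was VGLL4 (mean log2 0.43, SE 0.12, adjusted p = 0.0193, higher in 2 of 2 lines). The SE is pooled over genes, because the fit had 1 residual and 276 prior degrees of freedom, and does not hold the gap between the ratios of the lines, 0.18 and 0.68. VGLL4 kept its direction but missed the threshold in 4 of 9 other fits, among them centring on each line's median ratio (limma adjusted p = 0.0933) and edgeR with TMM recomputed on the recovered reads (0.0988). Over all 9 its adjusted p ran from 0.0165 to 0.281.

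At an unadjusted limma p below 0.05, 4 of 17 components were higher (23.5%), VGLL4, AMOTL1, MOB1A and SAV1, and 0 were lower, against 13.8% and 5.39% of all genes. edgeR with recomputed TMM and DESeq2 called 0 components in either direction, and DESeq2 gave no adjusted p for TEAD2 and AMOTL1. DESeq2 also did not call MAOA, the targeted gene (DESeq2 adjusted p = 0.315), whereas edgeR with recomputed TMM did (adjusted p = 0.0179). YAP1 had a mean log2 ratio of 0.22 (SE 0.12) and limma gave it an adjusted p of 0.331. TEAD1 had a mean of -0.19 (SE 0.13, limma adjusted p = 0.44). In 9 of the 17 components (52.9%) the ratio had the same sign in both lines, 8 higher and 1 lower (TEAD1), against 63.2% of all genes tested.

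Within the lines 0 components were 2-fold apart, though with a pseudocount of 0.1 in place of 1 AMOTL1 was 2-fold higher in C4-2B ENZR. Of all genes 0.29% were 2-fold higher and 0.152% lower in C4-2B ENZR (0.442% in either direction), and 0.58% higher and 0.254% lower in LNCaP (0.834%). In C4-2B ENZR the component ratios ran from -0.27 (AMOTL2) to 0.66 (AMOTL1), with a median of -0.0083 and 8 of 17 above 0 (50.4% of all genes). In LNCaP they ran from -0.32 (WWTR1) to 0.68 (VGLL4), with a median of 0.22 against 0.11 for all genes. There 16 of 18 were above 0, against 66.6% of all genes, and 14 of 18 were above the median of all genes. Centred on the median of all genes, the LNCaP component median was 0.11. With 1 library per group it has no replicate check.

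**Figure D3:**
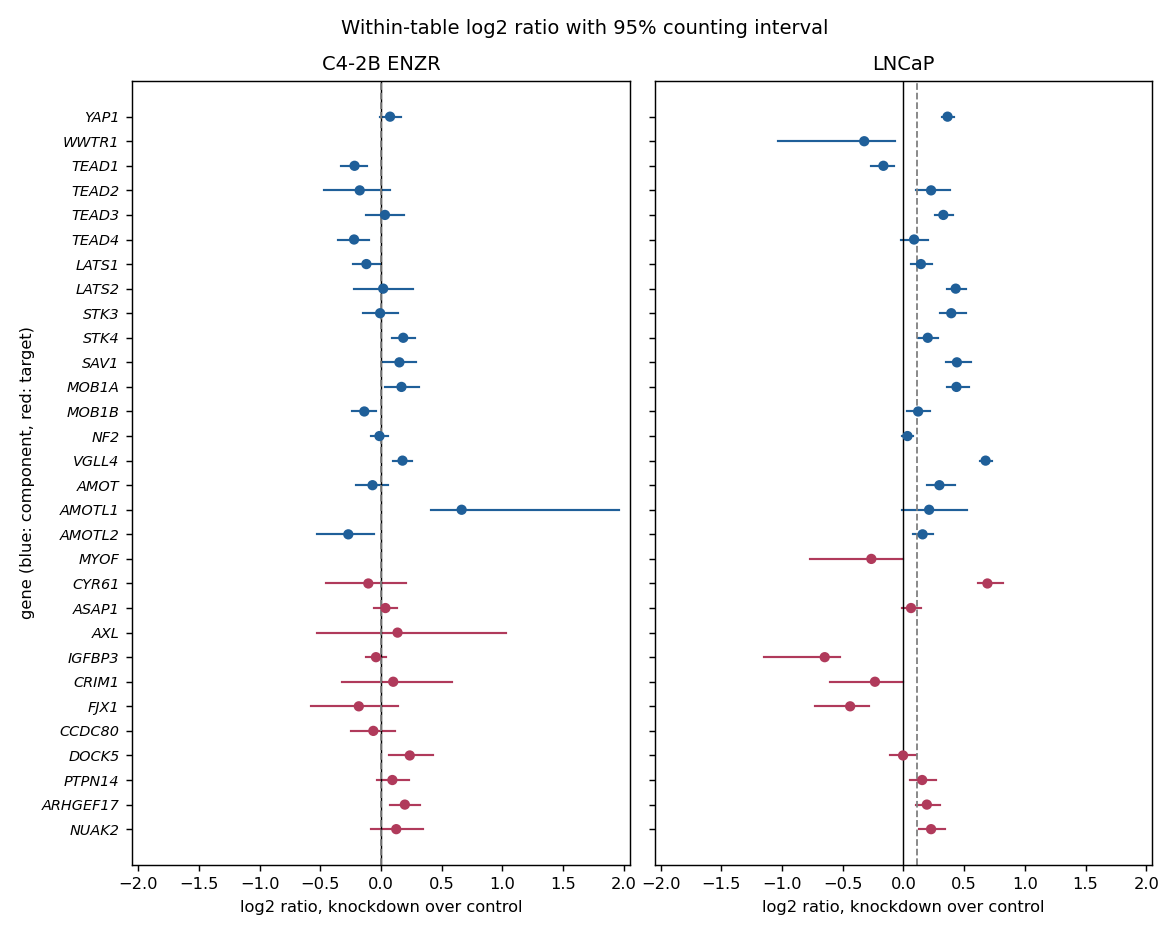
Within-table log2 ratio of knockdown over control for members with a mean of at least 1 CPM, components in blue and targets in red, C4-2B ENZR left and LNCaP right. Bars are 95% counting intervals (counting error only), the solid line is 0 and the dashed line the median of all genes (0.0020 and 0.11), and most LNCaP components lie to the right of that line.

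The targets ranged from no detected reads to 93.0 CPM. RBMS3 had 0 reads in all 4 libraries. ANKRD1, a nuclear ankyrin repeat protein and a much used readout of YAP1, had 0 reads in both C4-2B ENZR libraries and 19 against 25 reads in LNCaP. CTGF, a secreted matrix protein used the same way, had 1 against 0 reads in C4-2B ENZR and 58 against 24 reads in LNCaP (1.02 against 0.491 CPM). The forkhead gene FOXF2 had 0 reads in both C4-2B ENZR libraries and 29 against 17 in LNCaP. Another classical readout, CYR61, was detected throughout, at 6.55 against 6.02 CPM in C4-2B ENZR and 21.5 against 35.4 CPM in LNCaP.

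Start regions are shown for a pair of targets near the floor, CTGF and ANKRD1, and a pair that was expressed, NUAK2 and PTPN14, because both pairs hold the letters that TEAD proteins bind. RefSeq promoter windows (build GRCh38.p14) were on hand for 15 components and 14 targets, and the 250 bases before each start were searched for CATTCC and its reverse complement GGAATG, and for the AP-1 letters TGANTCA, which read the same on both strands. Of the 14 targets 7 (50%) held the TEAD letters, as did 2 of 15 components (13.3%, YAP1 and AMOTL2) and 14.3% of 27305 genes. AP-1 letters stood in 2 of 14 targets, F3 and ANKRD1, in 2 components, LATS1 and MOB1B, and in 8.06% of all genes. Published target sets were partly drawn up from TEAD binding, so these shares describe the list, and a match is not a shown binding site. The sequences are written 5′ to 3′ on the gene's strand, with TEAD letters (and in ANKRD1 also the AP-1 letters TGATTCA) in capitals.
CTGF (chr6:131951373-131951622, minus strand): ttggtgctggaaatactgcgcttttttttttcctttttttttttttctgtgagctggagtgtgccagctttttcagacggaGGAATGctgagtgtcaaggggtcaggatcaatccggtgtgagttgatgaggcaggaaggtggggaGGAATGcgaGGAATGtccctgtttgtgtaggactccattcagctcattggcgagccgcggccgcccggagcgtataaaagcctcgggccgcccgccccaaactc
ANKRD1 (chr10:90921088-90921337, minus strand): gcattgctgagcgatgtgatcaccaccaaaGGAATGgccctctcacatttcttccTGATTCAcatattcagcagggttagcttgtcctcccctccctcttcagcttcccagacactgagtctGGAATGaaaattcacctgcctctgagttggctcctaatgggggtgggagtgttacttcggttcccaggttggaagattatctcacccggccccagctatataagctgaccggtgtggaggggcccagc
NUAK2 (chr1:205321746-205321995, minus strand): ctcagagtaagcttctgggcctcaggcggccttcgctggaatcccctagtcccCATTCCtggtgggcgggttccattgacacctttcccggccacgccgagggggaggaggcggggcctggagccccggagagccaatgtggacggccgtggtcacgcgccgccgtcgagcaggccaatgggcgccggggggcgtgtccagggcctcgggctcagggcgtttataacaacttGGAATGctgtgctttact
PTPN14 (chr1:214551603-214551852, minus strand): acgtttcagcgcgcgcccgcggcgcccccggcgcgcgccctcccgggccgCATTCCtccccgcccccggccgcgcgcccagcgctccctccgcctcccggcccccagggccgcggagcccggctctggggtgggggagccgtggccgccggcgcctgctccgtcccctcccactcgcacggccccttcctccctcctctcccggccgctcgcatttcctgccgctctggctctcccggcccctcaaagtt
CTGF holds the TEAD letters 3 times, at positions -169, -104 and -95 from the start, ANKRD1 2 times (-220 and -128), NUAK2 2 times (-197 and -18) and PTPN14 1 time (-200).

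Of the 7 targets with such letters, NUAK2 and PTPN14 were well above 1 CPM, and CTGF, ANKRD1, FOXF2, AXL and TGFB2 were near or below it. The window of IGFBP3, which had the highest CPM of any target (93.0 in the C4-2B ENZR control), held none. NUAK2, a kinase of the AMPK family that feeds back on YAP1, was at 13.8 against 15.2 CPM in C4-2B ENZR and 25.6 against 30.1 CPM in LNCaP (log2 0.12 and 0.23). PTPN14, a phosphatase that holds YAP1 back, was at 36.4 against 38.9 CPM and at 25.0 against 27.9 CPM (0.09 and 0.15). AXL, a receptor tyrosine kinase, had letters in 1 of its 2 windows. It had 28 against 33 reads in C4-2B ENZR and 62 against 41 reads in LNCaP. TGFB2, a growth factor, had 18 against 4 reads in C4-2B ENZR and 33 against 18 in LNCaP, and 26.2% of its 50-base stretches occur in TGFB2-OT1. For ARHGEF17, ASAP1, CRIM1, CYR61, DOCK5, STK3, TEAD1 and TEAD4 no window was used here.

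**Figure D4:**
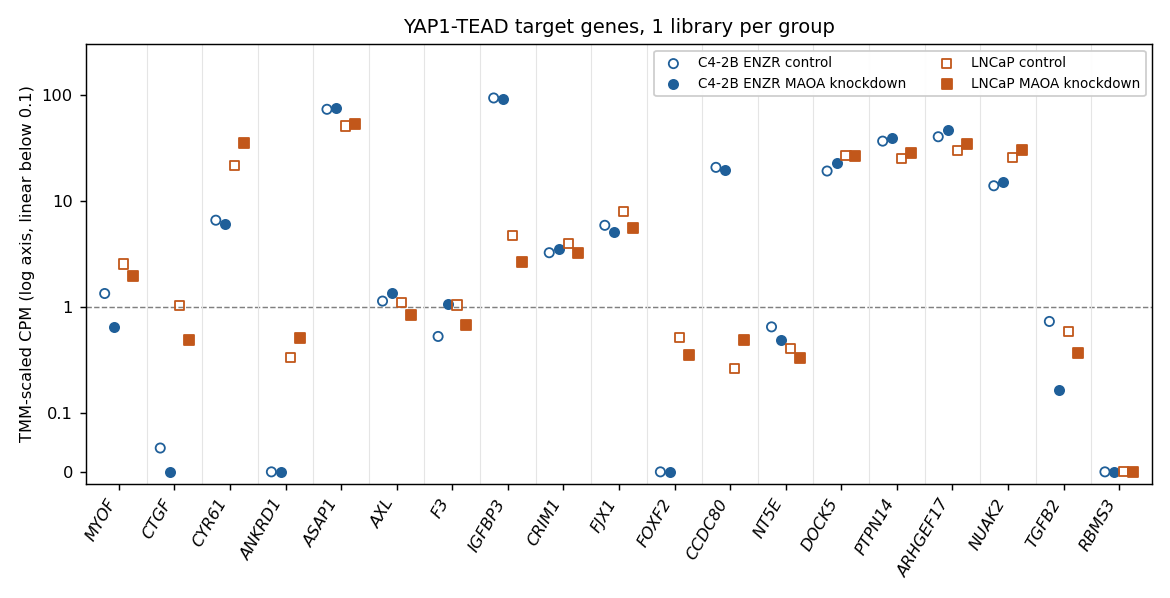
TMM-scaled CPM of the 19 targets in each of the 4 libraries, on an axis that is logarithmic above 0.1 CPM and linear below it; open symbols are controls, filled symbols MAOA knockdowns, and the dashed line marks 1 CPM. RBMS3 lies at 0 in all 4 libraries, and IGFBP3 and CCDC80 show a high pair for C4-2B ENZR (about 90.2 to 93.0 and 19.7 to 20.6 CPM) and a low pair for LNCaP.

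The remaining scarce targets are given by their reads. MYOF, a membrane repair protein, had 33 against 16 reads in C4-2B ENZR and 144 against 95 reads in LNCaP. F3, the coagulation tissue factor, had 13 against 26 reads in C4-2B ENZR and in LNCaP 59 against 33, opposite in direction in the 2 lines. NT5E, the ecto-enzyme CD73, had 16 against 12 reads in C4-2B ENZR and in LNCaP 23 against 16. At these counts the intervals are wide. For NT5E the log2 interval ran from -1.62 to 0.77 in C4-2B ENZR and from -1.33 to 0.68 in LNCaP. The LNCaP interval of CTGF ran from -1.81 to -0.35 and that of WWTR1 from -1.03 to -0.07.

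IGFBP3 and CCDC80 had far higher values in the C4-2B ENZR table than in the separately normalized LNCaP table. IGFBP3, which binds insulin-like growth factors, was at 93.0 against 90.2 CPM in C4-2B ENZR but at 4.74 against 2.66 CPM in LNCaP. CCDC80, a secreted matrix protein, was at 20.6 against 19.7 CPM in C4-2B ENZR and 0.264 against 0.491 CPM in LNCaP (15 against 24 reads). Line, sequencing lane (as coded in the labels) and enzalutamide cannot be told apart here. Within C4-2B ENZR their log2 ratios were -0.04 and -0.06, with counting intervals that include 0. In LNCaP IGFBP3 had 269 against 130 reads, a log2 ratio of -0.65 (interval -1.15 to -0.53), the lowest of the measured targets.

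Of the measured targets in LNCaP CYR61 had the highest ratio, with a log2 value of 0.69 (interval 0.61 to 0.82) but -0.11 in C4-2B ENZR (-0.45 to 0.21). CTGF, of the same protein family and below the minimum of 1 CPM, was lower in the same LNCaP knockdown library in which CYR61 was higher. FJX1, a relative of the Drosophila Four-jointed kinase, was at 5.86 against 5.04 CPM and at 7.88 against 5.55 CPM (-0.18 and -0.44), lower in the knockdown of both lines. CRIM1, a membrane protein that binds bone morphogenetic proteins, was at 3.24 against 3.54 CPM and at 3.98 against 3.23 CPM (0.10 and -0.23).

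ASAP1, ARHGEF17 and DOCK5, which act on small GTPases, had ratios between -0.0034 and 0.24. ASAP1, an Arf GTPase-activating protein, was at 72.7 against 74.5 CPM in C4-2B ENZR and 50.6 against 52.8 CPM in LNCaP (log2 0.04 and 0.06). ARHGEF17 was at 40.1 against 46.0 CPM and at 29.5 against 33.9 CPM (0.20 and 0.19). DOCK5, a Rac exchange factor, was at 19.0 against 22.6 CPM and at 26.6 against 26.5 CPM (0.24 and -0.0034).

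Over both lines limma called 0 of 9 targets in either direction, against 5.71% of all genes. At an unadjusted p below 0.05, 0 of 9 targets were higher and 1 was lower (11.1%), against 13.8% and 5.39% of all genes. The 1 that was lower was IGFBP3 (mean log2 -0.35, SE 0.14, limma adjusted p = 0.147). edgeR with recomputed TMM and DESeq2 called 0 as well, and DESeq2 gave no adjusted p for CRIM1 and FJX1. CYR61 had a mean of 0.29 (SE 0.15, limma adjusted p = 0.279) and FJX1 one of -0.31 (SE 0.17, 0.297). The 10 targets without a test had a mean under 1 CPM in 1 or both tables. Standard errors of tested members ran from 0.12 to 0.18 in log2. Mean changes of that order were not detectable here, and some larger ones also missed the threshold. Among the components AMOTL1, with a mean log2 ratio of 0.44 (SE 0.18), had a limma adjusted p of 0.143.

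Within the lines no measured target was 2-fold apart, against the same 0.442% and 0.834% of all genes. The median ratio of the measured targets was 0.09 in C4-2B ENZR (11 genes, 7 above 0) and 0.03 in LNCaP (10 genes, 5 above 0), against 0.0020 and 0.11 for all genes. Ratios above 0 were found in 50.4% and 66.6% of all genes. Centred on the median of all genes, the LNCaP target median was -0.085. At a 1.5-fold difference in LNCaP CYR61 was higher, as were the component VGLL4 and 4.98% of all genes, and IGFBP3 was lower, as were 1.57%. In C4-2B ENZR 1 component, AMOTL1, was 1.5-fold higher, as were 1.59% of all genes, and 0 members were lower, against 0.963%. In either direction 2.55% of all genes passed this fold in C4-2B ENZR and 6.55% in LNCaP.

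Other genes of the pathway were taken from a pair of lists, chosen with earlier results of these data known. Of 53 upstream regulators (polarity proteins, junction scaffolds, parallel kinases, the STRIPAK phosphatase complex and proteins that bind phosphorylated YAP1) 45 were tested, 0 rose and 1 fell. At an unadjusted limma p below 0.05, 4 were higher (8.89%) and 1 was lower (2.22%), against 13.8% and 5.39% of all genes, and edgeR with recomputed TMM and DESeq2 also called 0 higher and STK38 lower. The 1 that fell was STK38 (NDR1), a kinase of the LATS family that can phosphorylate YAP1. STK38 was at 46.3 against 29.7 CPM in C4-2B ENZR and 34.8 against 21.4 CPM in LNCaP, lower in both knockdown libraries by like amounts (log2 -0.62, interval -0.78 to -0.51, and -0.67, -0.81 to -0.59). Its mean log2 ratio was -0.65 (SE 0.13, limma adjusted p = 0.000183), and it passed under each of 5 combinations of scaling and tool (limma with the deposited scaling, with centring and with equal library sums, edgeR with recomputed TMM, and DESeq2), as did 0.572% of all genes in the lower direction. It did not pass in limma without the minimum of 1 CPM (adjusted p = 0.111), a fit in which 14 genes rose and 6 fell. MAOA did not pass in that limma fit either (adjusted p = 0.131). None of the 50-base stretches of STK38 occurs in another gene (0%). Its close relative STK38L was at 95.8 against 94.6 CPM and at 40.0 against 51.2 CPM and did not pass (limma adjusted p = 0.51).

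The median ratio of the measured upstream regulators was -0.0041 in C4-2B ENZR (45 genes) and 0.16 in LNCaP (47 genes), against 0.0020 and 0.11 for all genes. WWC1 (KIBRA), which activates LATS, was at 104 against 97.3 CPM and at 154 against 182 CPM. TAOK3, a kinase upstream of STK3 and STK4, was at 84.8 against 90.8 CPM in C4-2B ENZR and 119 against 182 CPM in LNCaP (log2 0.10 and 0.61) and missed the threshold (limma adjusted p = 0.068). The atypical cadherins FAT4 and DCHS2 and the cofactors VGLL1 and VGLL2 had at most 3 reads in any library. STK38 was named because it passed limma, and the other genes of this group were named after their values were seen.

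Among 20 further YAP1 targets, of which LATS2 and AMOTL2 are members too, 14 were tested, 2 rose and 2 fell, against 4.22% and 1.49% of all genes at the same threshold. This list was chosen with earlier results of these data known, so its share of calls is no test of YAP1 targets as a set. GADD45A, a growth arrest and DNA damage gene, was at 13.3 against 17.7 CPM in C4-2B ENZR and 19.0 against 50.0 CPM in LNCaP (mean log2 0.87, SE 0.14, limma adjusted p = 1.32e-06). GADD45B was at 4.93 against 6.95 CPM and at 18.4 against 44.6 CPM (0.83, SE 0.15, limma adjusted p = 2.12e-05). Both also belong to stress and p53 responses. BIRC5, which encodes survivin, was at 175 against 84.4 CPM and at 104 against 26.6 CPM (-1.48, SE 0.13, limma adjusted p = 1.71e-22), and it is a gene of dividing cells as well. In C4-2B ENZR and LNCaP the log2 ratios were 0.39 and 1.35 for GADD45A, 0.42 and 1.23 for GADD45B, and -1.04 and -1.92 for BIRC5. As for VGLL4, the SE and p of each gene here rest on spread pooled over genes. They do not hold the gap between the ratios of the lines. THBS1, a matrix protein listed in published YAP1 target sets, was at 74.0 against 40.7 CPM and at 436 against 344 CPM, lower in both knockdown libraries (log2 -0.85 and -0.34; mean -0.59, SE 0.13, limma adjusted p = 0.000319).

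GADD45A, GADD45B, BIRC5 and THBS1 also passed under each of these 5 combinations, as did 0.869% of all genes in the higher and 0.572% in the lower direction. Without the minimum of 1 CPM BIRC5 still passed in limma (adjusted p = 0.0343), and GADD45A (0.188), GADD45B (0.205) and THBS1 (0.171) did not. FLNA, the actin crosslinker, was at 659 against 479 CPM and at 1190 against 1072 CPM (log2 -0.46 and -0.15, limma adjusted p = 0.298). It passed with equal library sums (limma adjusted p = 0.0024), so that 3 further targets fell under that scaling, and it was named after its values were seen.

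**Figure D5:**
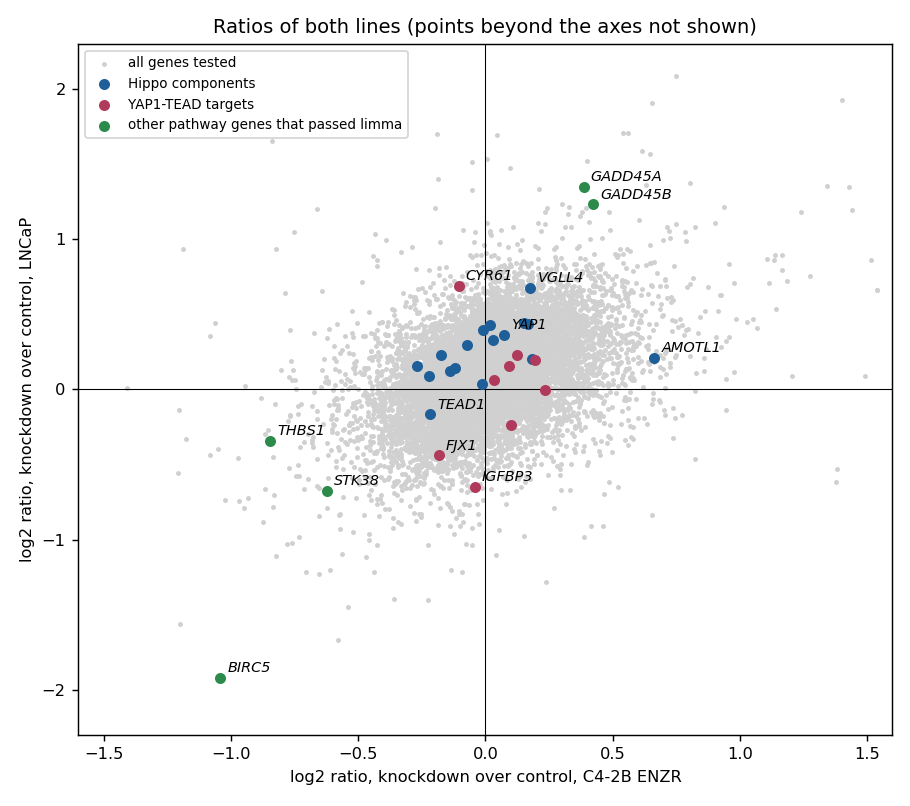
Log2 ratio of knockdown over control in C4-2B ENZR (x) and LNCaP (y) for the 13114 genes tested (grey), the tested components (blue), the tested targets (red) and the other pathway genes that passed limma (green). Points beyond the axes are not shown. The members lie among the grey points, and GADD45A, GADD45B, THBS1, STK38 and BIRC5 lie farther out.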

How the data were processed

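RNA of 4 libraries, 1 per group, was sequenced as single reads of 50 nt. The authors used Bowtie2 2.1.0, RSEM 1.2.15, edgeR and hg19, per the submitters' processing notes. They deposited 1 table per line in CPM scaled by TMM, per the file headers. The deposited LNCaP values are treated as signal, CPM that the authors had scaled by TMM before deposit, per the file headers. Their knockdown column sums to 1064501, and TMM-scaled CPM have no fixed sum. Dividing by the value of 1 read gave whole reads for 100% of values (tolerance 0.01). TMM recomputed on these reads gave the deposited log2 scaling of knockdown over control in C4-2B ENZR, 0.020. In LNCaP it gave 0.083, against 0.20 as deposited. The deposited scaling thus sets LNCaP ratios higher than recomputed TMM does, and the sources used here do not explain this gap. Depth ran from 23479051 to 52550452 reads.

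Ratios were taken within a table with a pseudocount of 1. Genes with a mean of at least 1 CPM in both tables (13114) entered limma 3.58.1 (R 4.3.3) with a line term, trended empirical Bayes and Benjamini-Hochberg adjustment at 0.05. With 1 library per group a difference within a line has counting intervals only, and the sources used here do not say which libraries come from separate cultures. Alternatives were other pseudocounts and minimums, centring, rescaling, and edgeR 4.0.16 and DESeq2 1.42.0 on recovered reads. The procedure was also run on simulated data in which a changed gene changed alike in both lines. That run does not cover genes whose ratios differ between the lines. Lengths and shared 50-base stretches are from GENCODE 29. Promoter windows are from RefSeq (GRCh38.p14).

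Every member is named or given by its reads. Of the other pathway genes those that passed limma are named. The members and lists were chosen with earlier results of these data known, and no p was adjusted over a list alone.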

Additional observations from a re-analysis of the deposited data

Results flagged for a closer look

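The knockdown ratio went one way in C4-2B ENZR and the opposite way in LNCaP in 8 of 17 tested components and 3 of 9 tested targets. It did so in 4832 of all 13114 genes tested. The sign was the same in both lines in 52.9% of the components and 66.7% of the targets, against 63.2% of all genes. Of the members with opposite ratios LATS1, MOB1B and AMOTL2 had uncentred counting intervals that left out 0 in both lines. Other pathway genes also had opposite ratios, and among them DUSP1 was the one with such intervals and ratios at least 2-fold apart. With 1 library per group the difference between the lines was not tested. LATS1 had log2 ratios of -0.12 and 0.14, a difference of 0.27, MOB1B -0.14 and 0.12, a difference of 0.26, and AMOTL2 -0.27 and 0.16, a difference of 0.43. After centring each line on its median ratio the LNCaP values of these 3 components were 0.03, 0.0069 and 0.04. Their uncentred LNCaP intervals were 0.06 to 0.23, 0.03 to 0.22 and 0.08 to 0.25. Each holds 0.11, the LNCaP median of all genes, so after centring the LNCaP intervals of all 3 include 0. DUSP1, a phosphatase of MAP kinases and a further YAP1 target, was at 11.2 against 6.26 CPM (control against knockdown) in C4-2B ENZR and 28.9 against 60.8 CPM in LNCaP, log2 ratios of -0.75 and 1.05 and a difference of 1.80. Centred, they were -0.76 and 0.93.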

How the results depend on the processing

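For 31 single genes, 249 of 272 values under alternatives kept their direction and their side of the threshold, 8 lost the threshold and 15 changed sign, all of the latter in genes that had not passed. Most of these genes had not passed to begin with. Only VGLL4, STK38, GADD45A, GADD45B, THBS1 and BIRC5 could lose the threshold. With no filter 5 of them did, all but BIRC5, and VGLL4 also lost it with centring, edgeR with recomputed TMM and DESeq2. The changes of sign were in TEAD2 (centred -0.032, same sum -0.079, edgeR with recomputed TMM -0.019), and, in the order centred, same sum, edgeR with recomputed TMM and DESeq2, in LATS1 (-0.047, -0.097, -0.046, -0.046), NF2 (-0.048, -0.10, -0.0499, -0.0496) and ASAP1 (-0.0092, -0.0599, -0.0101, -0.0098). The count of components that rose went from 1 to 0 with no filter, centring, edgeR with recomputed TMM and DESeq2. With no filter 0 upstream regulators fell, and 0 further targets rose and 1 fell. With a pseudocount of 0.1, 1 component (AMOTL1) was 2-fold higher in C4-2B ENZR. At 1.5-fold, 1 component was higher in each line, and 1 target was higher and 1 lower in LNCaP. The LNCaP median of components, 0.22, was 0.11 centred and 0.043 at the same sum. That of targets, 0.03, was 0.15 with a minimum of 5 CPM, -0.12 with no filter, -0.085 centred and -0.17 at the same sum. Centring and equal sums move the LNCaP ratios of all genes together, so these shifts are not particular to the members. With equal sums 3 further targets fell, FLNA among them. Over all genes, 554 rose and 195 fell in the deposited scaling, 152 and 114 centred, 351 and 653 at the same sum, 164 and 114 by edgeR with recomputed TMM, 131 and 90 by DESeq2 (3560 genes with no adjusted p), and 14 and 6 with no filter. edgeR with the deposited scaling, chosen after seeing the data, gave 584 and 205. The line term already pairs knockdown and control within a line. The labels give no replicate numbers for another block, and leaving out a library would leave no residual spread. In C4-2B ENZR, at lower depth, 3 reads are 0.121 and 0.122 CPM, which limits CTGF, ANKRD1, FOXF2 and RBMS3.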
